A study of Homo sapiens with 12 samples.

Results

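The ATP-binding cassette (ABC) transporter family was followed in 4 human lymphoma cell lines of the anaplastic large cell type (ALCL), which arises from T cells. Members were all genes named by a probe set with 1 gene symbol in the platform annotation whose symbol is ABCA, ABCB, ABCC, ABCD, ABCE, ABCF or ABCG followed by a digit. The pumps known to export the sorting dye (ABCG2, ABCB1 and ABCC1) and 3 pseudogenes were left out. This gave 39 genes of 18417 tested: 12 of subfamily ABCA, 7 of ABCB, 9 of ABCC, 3 of ABCD, 1 of ABCE, 3 of ABCF and 4 of ABCG.

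Side population (SP) cells, which stain weakly with the DNA dye Hoechst, and main population (MP) cells, which keep the dye, were sorted by flow cytometry from cultures in logarithmic growth. SUDHL-1 had 3 SP and 3 MP arrays, and DEL, Karpas299 and SUPM2 had 1 SP and 1 MP array each, 12 Affymetrix arrays in all. All 4 are established, untreated lines known for the NPM1-ALK fusion, which joins a nucleolar protein to a receptor tyrosine kinase, so each line stands for 1 tumour. The labels mention sorting in triplicate and do not say whether arrays of a line came from separate cultures. P-values therefore reflect the spread among these arrays alone, and that spread may be technical. The study's title speaks of stem cells of this lymphoma. The first comparison here asks whether ABC genes other than the dye pumps differ between SP and MP cells. The second asks how they differ between lines.

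ABC proteins couple the binding and hydrolysis of ATP to movement of a substrate across a membrane. ABCA and ABCG members move sterols and phospholipids, ABCB members include mitochondrial and lysosomal carriers and bile transporters, ABCC members export organic anions and conjugates or regulate potassium channels, and most ABCD members bring fatty acids into peroxisomes. ABCE and ABCF proteins have the ATP-binding domains but no membrane part, and act in translation: ABCE1 splits ribosomes after termination, and ABCF1 binds the initiation factor eIF2.

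All values below are log2 signals. Array medians over genes ranged from 5.25 to 5.37 for SUDHL-1 and from 5.76 to 5.80 for DEL, Karpas299 and SUPM2. No label names a batch, so line and array set cannot be told apart. SP and MP were therefore compared on the values as deposited, within each line, and lines were compared after each array was centred on its own median. Correlations over genes were 0.965 to 0.986 between SP and MP arrays of SUDHL-1, against 0.973 to 0.984 among its MP replicates. Of 8 ALCL markers, 7 were measured, with a mean log2 signal of 8.66 to 10.4 on SP arrays and 8.77 to 10.9 on MP arrays. ALK itself was the marker not measured. TMOD1 of this list lay at 3.97 to 5.995 in SUDHL-1 and at 6.23 to 10.3 in the other lines. IL2RA lay at 11.8 to 12.2 in SUDHL-1 and at 10.9 to 11.8 in the other lines. The 9 T-cell markers averaged 5.24 to 6.54 on SP arrays and 5.18 to 6.62 on MP arrays, and CD3G, a chain of the T-cell receptor complex, was in the lowest 25% of signals on all arrays. CD3D, another chain of that complex, lay at 5.42 to 5.94 in DEL and at 8.86 to 10.5 on the arrays of SUDHL-1, Karpas299 and SUPM2. Marker lists of B, myeloid, natural killer, erythroid and stromal cells averaged 3.999 to 5.58 on SP arrays and 3.94 to 5.48 on MP arrays. MS4A1 of the B-cell list and LYZ and MPO of the myeloid list were in the lowest 25% throughout. So were NCAM1, KLRD1 and KLRF1 of the natural killer list, PF4 of the platelet list and EPCAM of the epithelial list. Other members of these lists were brighter: the cytotoxic granule gene NKG7 lay at 8.24 to 12.1, CSF1R of the myeloid list at 4.90 to 8.59 and KRT18 of the epithelial list at 5.40 to 7.78. The 4 hepatocyte genes averaged 6.62 to 8.02 on SP arrays and 6.58 to 7.75 on MP arrays, with SERPINA1 at 11.2 to 12.3 on every array.

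Of the 39 members, 12 were in the lowest 25% of signals on all 12 arrays, with values of 2.28 to 4.15, and 19 were in it on 0 arrays. The dim members were ABCA4, ABCA5, ABCA6, ABCA8, ABCA9, ABCA10, ABCA12, ABCB4, ABCB5, ABCB11, ABCC12 and ABCG5. They include ABCB4 and ABCB11, the phospholipid and bile salt transporters of the liver, ABCG5, which with ABCG8 returns plant sterols to the gut, and ABCA4, the retinoid transporter of photoreceptors. ABCA5, ABCA6, ABCA8, ABCA9 and ABCA10, which are neighbours on chromosome 17 in RefSeq, were all among them. By mean signal over the 12 arrays, 24 members lay above the lowest 25% of genes and 15 below it. ABCC9 and ABCD2 lay above it by their signal in DEL, Karpas299 and SUPM2, since ABCC9 was in the lowest 25% on 4 SUDHL-1 arrays and ABCD2 on 3.

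RefSeq promoter windows (GRCh38.p14, 250 bases before to 50 after the start) were matched for 32 members. Those of ABCE1, ABCF1 and ABCF2 are shown because these translation genes were all higher in DEL and Karpas299 than in SUPM2, and that of ABCC9 because it had the widest range between lines. Capitals mark matches, on either strand, to the GC box GGGCGG, the CCAAT box CCAAT, the E-box CACGTG, the ETS core CCGGAA or the TATA box TATAAA, none of which overlap one another in these windows. The windows lie at chr4:145098061-145098360 (plus strand) for ABCE1, chr6:30571192-30571491 (plus strand) for ABCF1, chr7:151227156-151227455 (minus strand) for ABCF2 and chr12:21941377-21941676 (minus strand) for ABCC9.
ABCE1: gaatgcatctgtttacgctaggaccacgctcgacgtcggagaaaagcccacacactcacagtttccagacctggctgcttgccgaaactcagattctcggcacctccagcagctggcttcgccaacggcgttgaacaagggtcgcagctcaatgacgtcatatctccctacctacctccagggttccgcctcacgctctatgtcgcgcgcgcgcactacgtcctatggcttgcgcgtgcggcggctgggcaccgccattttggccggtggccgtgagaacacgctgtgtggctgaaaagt
ABCF1: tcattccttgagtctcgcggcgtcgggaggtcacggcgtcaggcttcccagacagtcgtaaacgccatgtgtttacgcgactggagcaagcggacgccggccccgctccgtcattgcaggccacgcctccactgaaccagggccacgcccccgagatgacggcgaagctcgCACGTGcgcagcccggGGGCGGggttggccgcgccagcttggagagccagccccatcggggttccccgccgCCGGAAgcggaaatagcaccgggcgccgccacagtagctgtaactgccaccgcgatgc
ABCF2: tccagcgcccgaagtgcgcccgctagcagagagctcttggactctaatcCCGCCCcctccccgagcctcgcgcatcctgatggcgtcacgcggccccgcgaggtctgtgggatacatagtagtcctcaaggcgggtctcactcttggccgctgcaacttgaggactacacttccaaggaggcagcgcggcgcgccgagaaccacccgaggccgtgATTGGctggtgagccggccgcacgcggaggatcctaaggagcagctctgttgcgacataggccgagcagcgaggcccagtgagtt
ABCC9: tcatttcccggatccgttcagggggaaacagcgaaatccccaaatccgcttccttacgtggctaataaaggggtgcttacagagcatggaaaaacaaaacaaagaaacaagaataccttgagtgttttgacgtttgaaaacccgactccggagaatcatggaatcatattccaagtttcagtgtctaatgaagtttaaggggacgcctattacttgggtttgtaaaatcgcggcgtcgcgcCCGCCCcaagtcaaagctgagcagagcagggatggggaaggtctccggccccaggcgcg
The ABCE1 window held none of these letters and 28 CG dinucleotides. ABCF1 had 37 CG dinucleotides, ABCF2 had 29 and ABCC9 had 18, and each of these windows held 1 GC box. Over all windows, the letters GGGCGG were in 18 of the 32 member windows (56.2%), against 60.0% of the 14239 windows of tested genes and 44.6% of all 27305. It was in 14 of 18 windows of members never in the lowest 25% of signals (77.8%), which had a median of 27.0 CG dinucleotides. It was in 1 of 8 windows of members always in that range (12.5%), which had a median of 3.0. The windows of all tested genes were not split by signal, so this split cannot be called particular to ABC genes. CCAAT was in 18.8% of member windows, against 36.3% for tested genes and 35.7% of all windows. CACGTG was in 12.5% of member windows, against 8.88% for tested genes. CCGGAA was in 18.8%, against 23.2%, and TATAAA in 15.6%, against 9.0%. These matches describe the letters of the windows and not sites in use.

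No ABC gene outside the dye pumps passed the test between SP and MP cells. In bulk RNA, fewer cells with a transcript and less of it per cell cannot be told apart. In SUDHL-1, 0 of 39 members had an adjusted p under 0.05 (limma, Benjamini-Hochberg over all genes), where 0.0% of all genes did. At an unadjusted p under 0.05 there were 2 members, ABCD4 and ABCD2, which is 5.13% of members against 3.13% of all genes. SP and MP arrays did not overlap for 3 members (7.69%), against 7.16% of all genes: ABCA10 was higher in SP (3.74% of all genes were) and ABCA9 and ABCD4 lower (3.42% of all genes). The median SP minus MP difference was -0.02 over the members, of which 15 of 39 were higher in SP, and 0.00 over all genes. Without the second SP array the member median was 0.01, with 21 of 39 higher in SP. The largest difference in size among members in SUDHL-1 was 0.95, for ABCD4.

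ABCD4, which carries cobalamin out of lysosomes and is the ABCD member outside peroxisomes, read 5.93, 5.57 and 6.41 on the SUDHL-1 SP arrays, against 6.81, 6.97 and 6.96 on the MP arrays. Every SP array was below every MP array. The means were 5.97 ± 0.42 in SP and 6.92 ± 0.09 in MP (SD, n = 3 each), a difference of -0.95 ± 0.22 (SE; limma adjusted p = 1.0). DEL read 7.004 in SP and 7.23 in MP, Karpas299 6.67 in SP and 7.28 in MP, and SUPM2 7.14 in SP and 6.91 in MP. SP was thus the lower array in DEL and Karpas299 and the higher in SUPM2.

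ABCD2, a peroxisomal importer of very long-chain fatty acids, read 3.72, 3.86 and 3.28 on the SUDHL-1 SP arrays and 4.69, 3.71 and 4.85 on the MP arrays. The second MP array lay among the SP arrays. The difference was -0.80 ± 0.32 (SE; limma adjusted p = 1.0). SP also lay below MP in DEL, at 6.47 against 7.43, and in SUPM2, at 5.14 against 6.23, but above it in Karpas299, at 6.75 against 5.92. ABCD3, the peroxisomal importer of branched-chain and bile acid precursors, differed by -0.09 ± 0.36 in SUDHL-1 (SE; adjusted p = 1.0 with limma).

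Of the conjugate exporters, ABCC4, which exports cyclic nucleotides and prostaglandins, read 6.82, 7.10 and 6.47 in SUDHL-1 SP and 6.91, 7.23 and 7.43 in MP, so the populations overlapped. Its difference was -0.39 ± 0.22 (SE; limma adjusted p = 1.0). ABCC5, an exporter of nucleotide analogues and glutamate conjugates, read 5.49, 5.87 and 5.37 in SP and 5.74, 5.65 and 6.73 in MP. The difference of -0.46 ± 0.30 rested in large part on the third MP array, and was -0.12 without it. ABCC5 was also lower in SP in DEL (5.58 against 6.40), Karpas299 (5.93 against 6.12) and SUPM2 (5.53 against 5.59). It was the 1 member lower in SP in all 4 lines. ABCC3, an exporter of glucuronides, read 4.23, 4.08 and 4.30 in SUDHL-1 SP and 4.21, 4.11 and 4.15 in MP, which overlapped.

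Among members with the opposite direction, ABCB8, part of a potassium channel complex of the mitochondrial inner membrane, read 5.99, 5.75 and 6.08 in SUDHL-1 SP and 5.63, 5.72 and 5.77 in MP. The second SP array lay within the MP range. ABCA1, which loads cholesterol onto apolipoprotein A-I, read 6.33, 6.65 and 5.52 in SP and 5.92, 6.08 and 5.33 in MP, and the arrays numbered 3 were the lowest of both populations. ABCF3, which in mice takes part in resistance to flaviviruses, read 7.04, 7.62 and 7.66 in SP and 7.31, 7.11 and 7.26 in MP. The differences were 0.23 ± 0.15 for ABCB8, 0.39 ± 0.33 for ABCA1 and 0.21 ± 0.20 for ABCF3 (SE), each with a limma adjusted p of 1.0. Leaving out 1 array gave 0.15 to 0.72 for ABCA1 and 0.10 to 0.42 for ABCF3, and for ABCB8 the average of its 3 probe sets differed by 0.06.

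**Figure D1:**
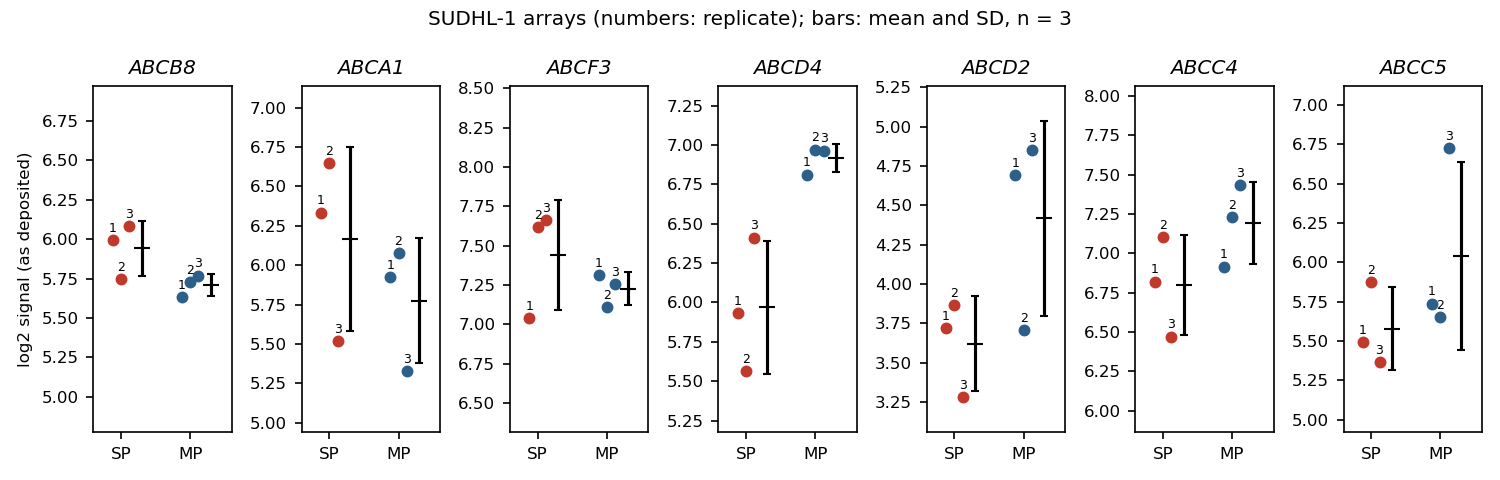
Log2 signal as deposited of 7 ABC genes on the SUDHL-1 arrays, SP (red) left of MP (blue), with replicate numbers, and mean and SD (n = 3) beside each group; all panels span the same number of log2 units. SP and MP do not overlap for ABCD4, at 5.57 to 6.41 in SP and 6.81 to 6.97 in MP, and do overlap for the other 6.

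Over the 4 lines, with 1 SP minus MP difference per line, 0 of 39 members were called, where 0.0% of all genes were, and 1 member, ABCC5, had an unadjusted p under 0.05 (2.56%, against 4.91% of all genes). SP lay on the same side in all 4 lines for 6 members (15.4%), against 13.7% of all genes. ABCA5, ABCA8, ABCA12, ABCB11 and ABCG1 were higher in SP, where 8.09% of all genes were, and ABCC5 lower, where 5.65% were. Of the 5, all but ABCG1 were in the lowest 25% of signals on all arrays, and ABCG1 was in it on 8 arrays. ABCC5 had a mean difference of -0.38 ± 0.15 (SE, n = 4 lines; limma adjusted p = 0.918). ABCG1, which exports cholesterol to high-density lipoprotein, averaged 0.18 ± 0.11 (adjusted p = 0.918 with limma). Its arrays read 4.01, 3.49 and 4.33 in SUDHL-1 SP and 3.93, 3.85 and 3.76 in SUDHL-1 MP, with overlap. In DEL it read 4.27 in SP and 4.25 in MP, in Karpas299 4.38 in SP and 4.17 in MP, and in SUPM2 4.39 in SP and 4.01 in MP. The dim genes ABCA5 and ABCA9 averaged 0.21 ± 0.10 and 0.25 ± 0.14 (SE). ABCA5 lay between 2.37 and 2.95 on all arrays and ABCA9 between 2.64 and 3.43. ABCC3 averaged -0.21 ± 0.13 and ABCD4 -0.39 ± 0.20 (SE; limma adjusted p = 0.918 for each of these 4).

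The differences of single arrays in the other lines were wider. The median size of the SP minus MP difference over members was 0.111 for SUDHL-1, 0.227 for DEL, 0.222 for Karpas299 and 0.302 for SUPM2, against 0.122, 0.202, 0.209 and 0.277 over all genes. SUDHL-1 values are means of 3 arrays and the others come from 1 array per population. The widest were ABCF3 in DEL, at 7.02 in SP and 8.27 in MP, and ABCD2 in SUPM2. Whether the SP minus MP difference was another in SUDHL-1 than in the other lines was tested as an interaction, which called 0 members, where 0.0% of all genes were called. At an unadjusted p under 0.05 it gave 2 members, ABCA9 and ABCD4 (5.13%), against 3.59% of all genes.

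**Figure D2:**
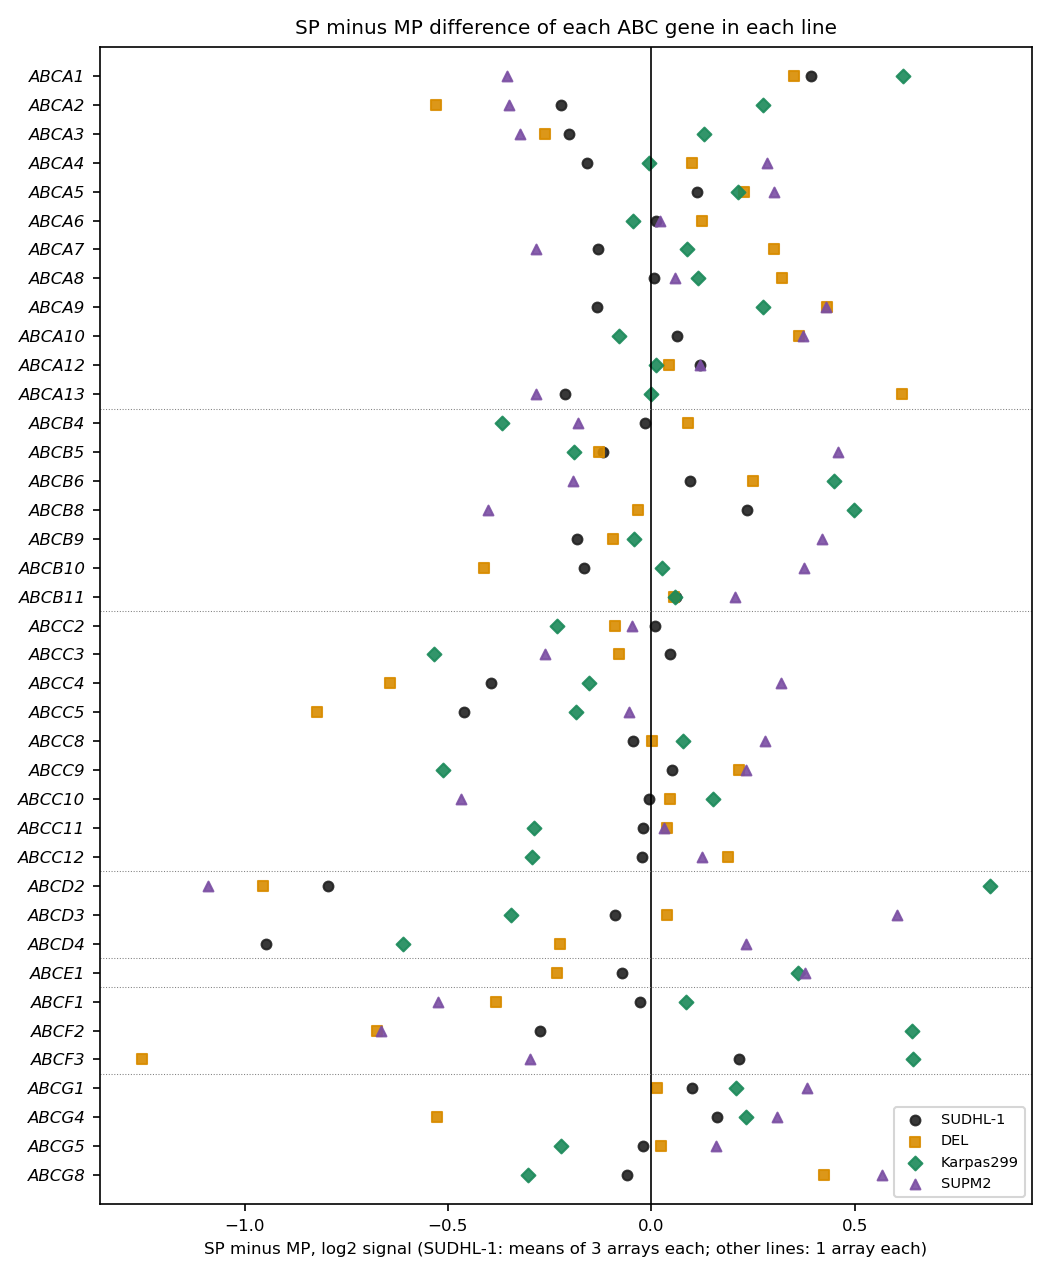
SP minus MP difference in log2 signal (horizontal axis) of all 39 ABC genes by subfamily, 1 symbol per line; SUDHL-1 is a difference of means of 3 arrays each and the other lines of single arrays. The symbols of most genes lie on both sides of 0, and 6 genes have all 4 on 1 side.

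By subfamily, SP was higher in SUDHL-1 for 6 of 12 ABCA, 3 of 7 ABCB, 3 of 9 ABCC, 0 of 3 ABCD, 0 of 1 ABCE, 1 of 3 ABCF and 2 of 4 ABCG genes. By the mean of the 4 lines it was higher for 9 of 12 ABCA, 5 of 7 ABCB, 1 of 9 ABCC, 1 of 3 ABCD, 1 of 1 ABCE, 0 of 3 ABCF and 3 of 4 ABCG genes. Of all genes, 49.9% were higher in SP in SUDHL-1 and 55.6% by the mean of the 4 lines. The ABCA genes higher by that mean include the dim ABCA4, ABCA5, ABCA6, ABCA8, ABCA9, ABCA10 and ABCA12. These counts carry no test. In the lists of genes that work with ABC proteins, no gene passed the test between SP and MP in SUDHL-1 or over the 4 lines. These were 13 genes of sterol regulation and efflux, 10 of peroxisomes, 17 of ribosome recycling and initiation, 15 of iron-sulfur and haem synthesis, 14 of glutathione, 7 of antigen peptide loading and 11 of solute uptake. The dye pumps were not called either. ABCG2 read 3.80, 3.83 and 3.87 in SUDHL-1 SP and 3.94, 3.29 and 3.55 in MP, and the mean over the lines was 0.34 ± 0.25 for ABCG2, 0.15 ± 0.11 for ABCB1 and 0.15 ± 0.24 for ABCC1 (SE).

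Between SUDHL-1 and the other lines, ABC genes were called at a share near that of all genes. SUDHL-1 against the mean of DEL, Karpas299 and SUPM2 gave 21 of 39 members with a limma adjusted p under 0.05 (53.8%), against 54.2% of all genes. Of these, 13 were higher in SUDHL-1 (33.3%, against 34.6% of all genes) and 8 lower (20.5%, against 19.6%). The split depended on the scale: on the values as deposited 5 were higher (12.8%, against 16.4%) and 22 lower (56.4%, against 49.2%). The median over all genes was 0.13 after centring and -0.33 as deposited, and the median over members 0.11 and -0.35. After a further quantile normalization, 6 were higher and 8 lower, against 4792 higher and 4597 lower of the 18417 genes.

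On all 3 scales, 5 members were higher in SUDHL-1: ABCA13, ABCC4, ABCD3, ABCE1 and ABCF1 (15.5% of all genes were). Lower on all 3 were 8: ABCA2, ABCA3, ABCA7, ABCB4, ABCB9, ABCC9, ABCC10 and ABCD2 (19.5% of all genes). All 13 had the same direction in SP arrays alone and in MP arrays alone. That was nearly fixed in advance, since both sets of arrays entered the fits that picked the 13. Of these, 9 were called in both sets, a share not computed for all genes. Those 9 leave out ABCD3, ABCA7, ABCB9 and ABCB4, the last of which was dim throughout. The other 8 members called higher after centring were ABCA5, ABCA6, ABCA8, ABCA9, ABCA10, ABCA12, ABCB5 and ABCB11. All 8 were in the lowest 25% of signals on each of the 12 arrays and differed by less than 0 on the values as deposited, so their direction rests on the scale.

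ABCC9, the regulatory subunit (SUR2) of ATP-sensitive potassium channels, had the widest range. It read 4.16, 3.38 and 3.31 in SUDHL-1 SP and 3.55, 3.25 and 3.91 in SUDHL-1 MP. DEL read 8.22 in SP and 8.003 in MP, Karpas299 7.77 in SP and 8.28 in MP, and SUPM2 9.69 in SP and 9.46 in MP. Every SUDHL-1 array was far below every array of the other lines. The difference was -4.52 ± 0.18 (SE; limma adjusted p = 4.25e-08) after centring and -4.98 as deposited. No fold is given, since 4 of the SUDHL-1 values were in the lowest 25% of signals and may not be above background. SUPM2 was above the other 2 of these lines: DEL differed from it by -1.45 ± 0.31 (adjusted p = 0.0177) and Karpas299 by -1.53 ± 0.31 (adjusted p = 0.0114; limma). ABCC8, which encodes the related subunit SUR1, lay between 4.12 and 5.21 on all arrays and was not called between lines after centring.

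Of the translation genes, ABCF1 read 11.32, 11.32 and 11.05 in SUDHL-1 SP and 11.17, 11.25 and 11.34 in SUDHL-1 MP. It read 9.48 in SP and 9.86 in MP of DEL, 9.24 in SP and 9.16 in MP of Karpas299, and 8.24 in SP and 8.77 in MP of SUPM2. The lines stood apart, with SUDHL-1 highest and SUPM2 lowest. After centring, SUDHL-1 exceeded the other lines by 2.58 ± 0.12 (SE; limma adjusted p = 8.02e-08), a 5.97-fold difference on that scale. The difference was 2.12 as deposited and 1.94 after quantile normalization. The 3 probe sets of ABCF1 held identical values on every array, so they count as 1 measurement. DEL exceeded SUPM2 by 1.17 ± 0.20 (adjusted p = 0.00524 with limma) and Karpas299 exceeded it by 0.72 ± 0.20 (adjusted p = 0.0494 with limma). The Karpas299 call was lost after a further quantile normalization (adjusted p = 0.148 with limma), and when any 1 SUDHL-1 array other than the second SP array was left out (adjusted p = 0.0508 to 0.0683 with limma). With a robust variance its adjusted p was 0.0502, and with only the 6 arrays of these lines the adjusted p of ABCF1 was 0.0545 for DEL and 0.141 for Karpas299 against SUPM2 (limma).

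ABCE1 read 9.02, 9.43 and 8.56 in SUDHL-1 SP and 9.12, 9.13 and 8.98 in MP. It read 8.81 in SP and 9.04 in MP of DEL, 8.98 in SP and 8.62 in MP of Karpas299, and 7.44 in SP and 7.06 in MP of SUPM2. On the deposited scale SUPM2 was the low line, and the other 3 overlapped. ABCE1 was higher than in SUPM2 by 1.69 ± 0.28 in DEL (adjusted p = 0.00474) and by 1.57 ± 0.28 in Karpas299 (adjusted p = 0.00582; SE, limma). After centring, SUDHL-1 exceeded the mean of the other lines by 1.17 ± 0.16 (SE; limma adjusted p = 1.61e-04), by 0.71 as deposited and by 0.61 after quantile normalization, and it was called on each scale. Without SUPM2 the centred difference was 0.63 (limma adjusted p = 0.0184).

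ABCF2 was called in the comparisons with SUPM2 but not for SUDHL-1 after centring. It read 7.38, 7.76 and 7.39 in SUDHL-1 SP and 7.94, 7.63 and 7.78 in MP, which overlapped. It read 8.42 in SP and 9.09 in MP of DEL, 8.80 in SP and 8.16 in MP of Karpas299, and 6.64 in SP and 7.30 in MP of SUPM2. DEL exceeded SUPM2 by 1.80 ± 0.31 (adjusted p = 0.00499) and Karpas299 exceeded it by 1.53 ± 0.31 (adjusted p = 0.00993; SE, limma). Both calls were lost with only the 6 arrays of these lines (adjusted p = 0.0673 for DEL and 0.0812 for Karpas299, limma). The third member, ABCF3, read 7.02 in SP and 8.27 in MP of DEL, 7.85 in SP and 7.21 in MP of Karpas299, and 6.92 in SP and 7.21 in MP of SUPM2, and was called in no line comparison. Of the 17 listed genes of ribosome recycling, rescue and initiation, 14 were higher and 2 lower in SUDHL-1 after centring, and 12 higher and 3 lower as deposited. Of all genes, 34.6% were higher and 19.6% lower after centring, and 16.4% higher and 49.2% lower as deposited. Their median difference was 1.12 after centring, against 0.13 over all genes. EIF2S1, the alpha subunit of eIF2, differed by 2.11 ± 0.12 (limma adjusted p = 2.75e-07) and EIF2S3, its gamma subunit, by 1.503 ± 0.10 (limma adjusted p = 1.08e-06). Between DEL and SUPM2, 2 of the 17 were higher in DEL, and between Karpas299 and SUPM2, 4 were higher in Karpas299, with 0 lower in either. Of all genes, 5.31% were higher and 2.63% lower in DEL, and 6.52% were higher and 3.75% lower in Karpas299. EIF2S1 and EIF5B, which joins the ribosomal subunits, were among both.

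**Figure D3:**
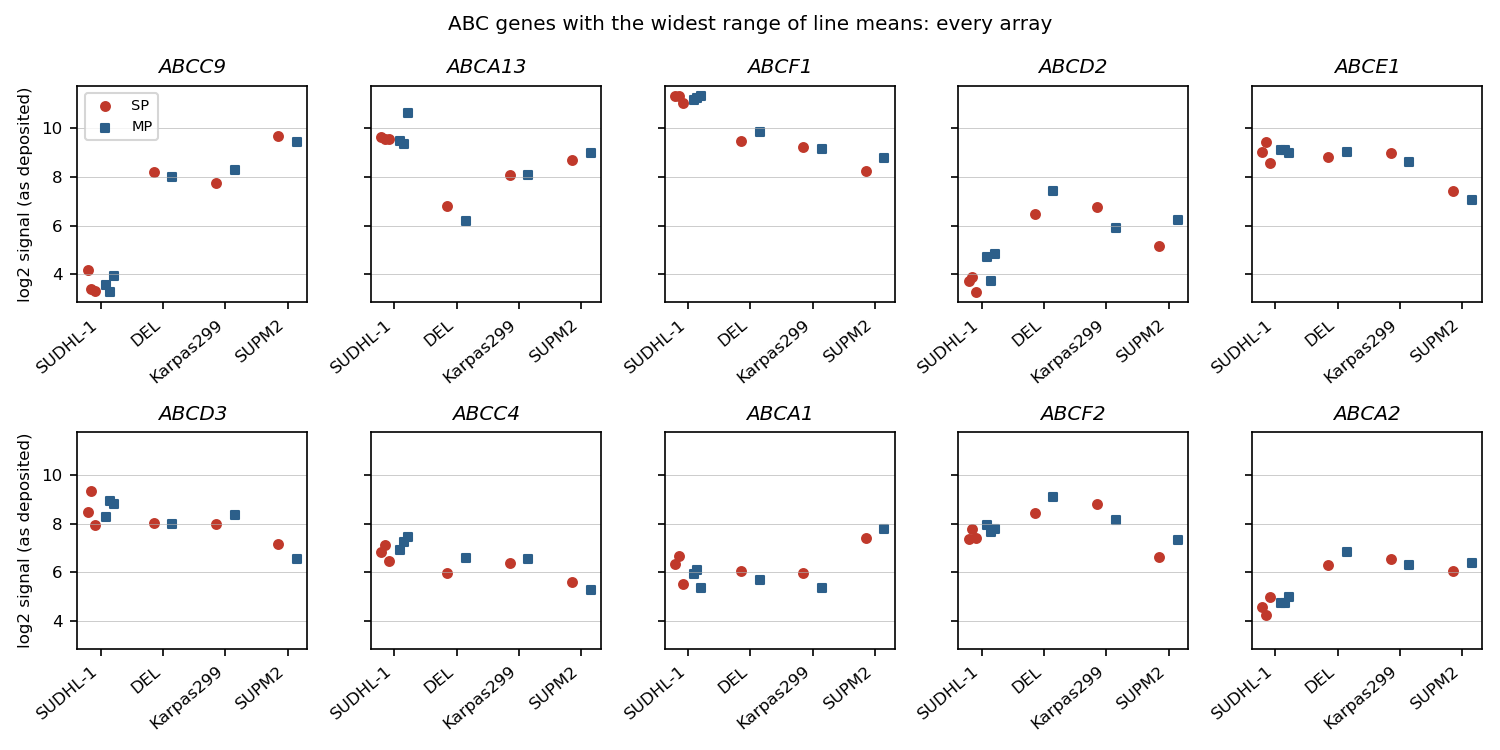
Log2 signal as deposited on every array of the 10 ABC genes with the widest range of centred line means among those called between lines, by line, with SP (red circles) left of MP (blue squares). ABCC9 lies at 3.25 to 4.16 in SUDHL-1, against 7.77 to 9.69 elsewhere, while ABCF1 lies at 11.05 to 11.34 in SUDHL-1 and at 8.24 to 9.86 in the others.

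Among peroxisomal members, ABCD2 and ABCD3 moved in opposite directions. ABCD2, at 3.28 to 4.85 in SUDHL-1, against 5.14 to 7.43 elsewhere, was lower in SUDHL-1 (-1.84 ± 0.28, SE; limma adjusted p = 3.0e-04). ABCD3 read 8.47, 9.35 and 7.92 in SUDHL-1 SP and 8.27, 8.93 and 8.81 in MP. It read 8.03 in SP and 7.99 in MP of DEL, 7.99 in SP and 8.34 in MP of Karpas299, and 7.15 in SP and 6.55 in MP of SUPM2. SUDHL-1 overlapped DEL and Karpas299 on the deposited scale, and the centred difference was 1.41 ± 0.24 (SE; limma adjusted p = 6.57e-04). In SP arrays alone ABCD3 was not called (adjusted p = 0.0713 with limma). Of 10 measured genes of peroxisomal import and oxidation, 2 were higher and 3 lower in SUDHL-1 after centring (34.6% and 19.6% of all genes were), and 0 higher and 6 lower as deposited (16.4% and 49.2% of all genes). CRAT, the carnitine acetyltransferase, differed by -1.56 ± 0.09 (limma adjusted p = 4.25e-07).

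The lipid transporters also split. ABCA13, a very large ABCA protein whose transport role is not settled, read 9.66, 9.58 and 9.55 in SUDHL-1 SP and 9.48, 9.34 and 10.62 in MP. It read 6.80 in SP and 6.18 in MP of DEL, 8.08 in SP and 8.08 in MP of Karpas299, and 8.68 in SP and 8.97 in MP of SUPM2. The lines did not overlap, and DEL was lowest. SUDHL-1 exceeded the others by 2.37 ± 0.21 (SE; limma adjusted p = 6.77e-06). DEL was lower than Karpas299 (-1.60 ± 0.37, adjusted p = 0.0321) and than SUPM2 (-2.32 ± 0.37, adjusted p = 0.00326; SE, limma). The call against Karpas299 was lost when the first SUDHL-1 SP array was left out of the shared fit (adjusted p = 0.0514 with limma).

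ABCA2, a lysosomal lipid transporter, read 4.55, 4.24 and 4.98 in SUDHL-1 SP and 4.74, 4.74 and 4.96 in MP. The other lines read 6.30, 6.55 and 6.03 in SP and 6.83, 6.27 and 6.38 in MP, in the order DEL, Karpas299 and SUPM2. SUDHL-1 lay below all of them, by -1.23 ± 0.14 after centring (SE; limma adjusted p = 3.01e-05). ABCA3, the surfactant phospholipid transporter of lamellar bodies, lay at 5.30 to 5.88 in SUDHL-1, against 6.83 to 7.52 elsewhere, with a difference of -1.15 ± 0.12 (SE; limma adjusted p = 1.87e-05). ABCA1 was among the members higher in SUPM2 than in DEL and Karpas299, at 7.42 in SP and 7.78 in MP of SUPM2. It read 6.03 in SP and 5.68 in MP of DEL, and 5.98 in SP and 5.36 in MP of Karpas299. The difference from SUPM2 was -1.73 ± 0.39 for DEL (adjusted p = 0.0230) and -1.90 ± 0.39 for Karpas299 (adjusted p = 0.0120; SE, limma). ABCG1 was not called in any line comparison after centring. Of 13 measured genes of the sterol list, 3 were higher and 6 lower in SUDHL-1 after centring (34.6% and 19.6% of all genes were), and 1 higher and 8 lower as deposited (16.4% and 49.2% of all genes). SCARB1, the receptor for high-density lipoprotein, differed by -1.90 ± 0.15 (limma adjusted p = 2.6e-06). It was higher in DEL than in SUPM2 by 1.73 ± 0.26 (limma adjusted p = 0.00229).

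ABCC4 lay at 6.47 to 7.43 in SUDHL-1. It read 5.95 in SP and 6.59 in MP of DEL, 6.37 in SP and 6.52 in MP of Karpas299, and 5.60 in SP and 5.28 in MP of SUPM2. On the deposited scale the lowest SUDHL-1 array overlapped DEL and Karpas299. The centred difference was 1.40 ± 0.16 (SE; limma adjusted p = 4.26e-05). Karpas299 exceeded SUPM2 by 1.03 ± 0.28 (SE; limma adjusted p = 0.0438), a call lost without the first SP, first MP or second MP array of SUDHL-1 (adjusted p = 0.0584 to 0.0645 with limma), with a robust variance (0.0539) and with only the 6 arrays of these lines (0.0995). ABCC10, an exporter of amphipathic anions, was lower in SUDHL-1 (-0.90 ± 0.12, SE; limma adjusted p = 1.16e-04; -1.36 as deposited). ABCC5 was called in no line comparison. Of 14 glutathione genes, 3 were higher and 9 lower in SUDHL-1 after centring (34.6% and 19.6% of all genes were), and 2 higher and 10 lower as deposited (16.4% and 49.2% of all genes). Among the lower was MGST2, a microsomal glutathione transferase, at -4.20 ± 0.30 (limma adjusted p = 1.44e-06). MGST1, the related transferase, was higher in DEL than in Karpas299 by 6.29 ± 0.18 (limma adjusted p = 3.2e-08).

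**Figure D4:**
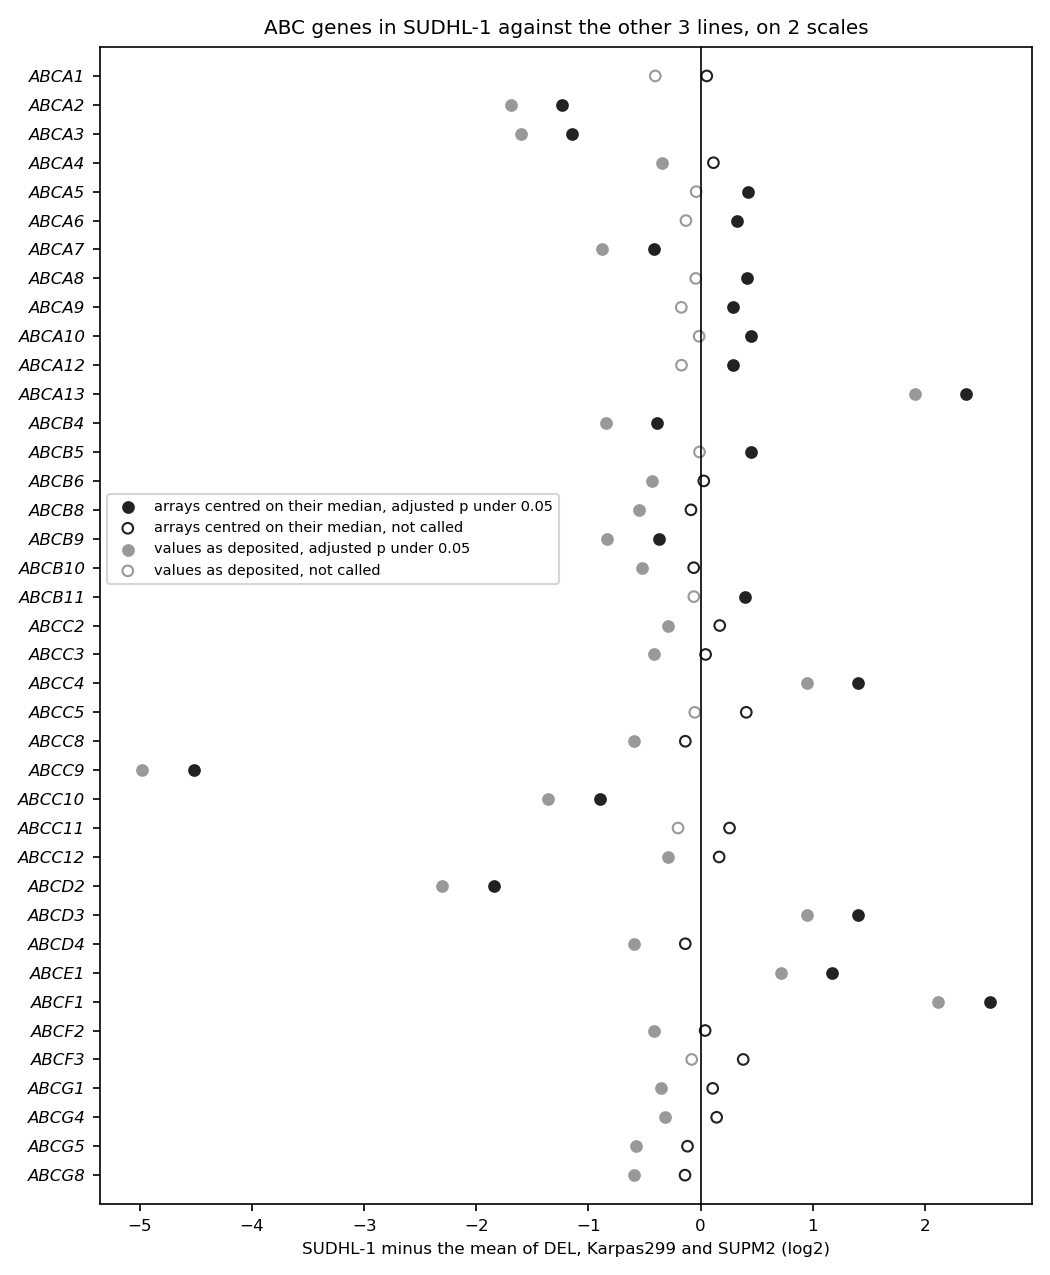
SUDHL-1 minus the mean of DEL, Karpas299 and SUPM2 in log2 units (horizontal axis) for all 39 ABC genes, after centring each array on its median (black) and on the values as deposited (grey); filled symbols have a limma adjusted p under 0.05. Of the filled black symbols 13 lie right of 0 and 8 left, and of the filled grey symbols 5 lie right and 22 left.

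Among DEL, Karpas299 and SUPM2, DEL differed from Karpas299 in 2 members (5.13%, against 4.99% of all genes), ABCA13 and ABCB8, both lower in DEL (2.24% of all genes were). ABCB8 read 5.93 in SP and 5.96 in MP of DEL and 7.05 in SP and 6.55 in MP of Karpas299 (-0.86 ± 0.21, SE; limma adjusted p = 0.0419). Its 3 probe sets disagreed, and the call was lost when they were averaged, with a robust variance, and when any 1 SUDHL-1 array other than the third SP array was left out. DEL differed from SUPM2 in 7 members (17.9%, against 7.94%), with ABCE1, ABCF1 and ABCF2 higher and ABCA1, ABCA13, ABCB6 and ABCC9 lower in DEL. Of all genes, 5.31% were higher and 2.63% lower in DEL. Karpas299 differed from SUPM2 in 7 (17.9%, against 10.3%), with ABCC4, ABCE1, ABCF1 and ABCF2 higher and ABCA1, ABCB6 and ABCC9 lower in Karpas299. Of all genes, 6.52% were higher and 3.75% lower in Karpas299. These comparisons share the SUPM2 arrays. Both called ABCE1, ABCF1 and ABCF2 higher (3 of 39, where 2.96% of all genes were) and ABCA1, ABCB6 and ABCC9 lower (3 of 39, where 1.33% were). ABCB6, a porphyrin transporter, read 4.95 in SP and 4.70 in MP of DEL, 5.49 in SP and 5.04 in MP of Karpas299, and 6.10 in SP and 6.29 in MP of SUPM2. Its difference from SUPM2 was -1.35 ± 0.20 for DEL (adjusted p = 0.00246) and -0.91 ± 0.20 for Karpas299 (adjusted p = 0.0173; SE, limma). Of 15 genes of iron-sulfur and haem synthesis, 2 were higher and 0 lower in DEL than in SUPM2, and 2 higher and 2 lower in Karpas299. ALAS1, the first enzyme of haem synthesis, was higher than in SUPM2 by 1.41 ± 0.21 in DEL (limma adjusted p = 0.00237). With only the 6 arrays of these lines, which leave few residual degrees of freedom, 0, 5 and 3 of these calls remained in the 3 comparisons.

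The range of centred line means over the 4 lines had a median of 0.516 over members and 0.719 over all genes. It was at least 1 for 13 of 39 members, against 36.5% of all genes. Over DEL, Karpas299 and SUPM2 alone the medians were 0.350 and 0.420, and the range was at least 1 for 10 members, against 17.6% of all genes.

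ABC genes under other symbols were read for comparison. TAP1, a subunit of the peptide transporter of antigen presentation, lay at 6.68 to 7.42 in SUDHL-1, against 8.88 to 9.90 elsewhere, a difference of -2.004 ± 0.14 (SE; limma adjusted p = 1.34e-06). TAP2, its partner, differed by -0.35 ± 0.12 (limma adjusted p = 0.035) after centring and by -0.81 as deposited. Of 7 measured genes of peptide loading, 0 were higher and 5 lower in SUDHL-1 after centring (34.6% and 19.6% of all genes were), and 0 higher and 7 lower as deposited (16.4% and 49.2% of all genes). TAPBP, which tethers the transporter to class I molecules, differed by -3.19 ± 0.12 (limma adjusted p = 2.95e-08). CFTR, the chloride channel of the ABCC subfamily, was dim, at 2.40 to 2.74 on all arrays. Of 11 uptake carriers, 5 were higher and 1 lower in SUDHL-1 after centring (34.6% and 19.6% of all genes were), and 3 higher and 3 lower as deposited (16.4% and 49.2% of all genes). SLC29A1, a nucleoside carrier, was higher in DEL than in SUPM2 by 1.52 ± 0.28 (limma adjusted p = 0.00867) and higher in Karpas299 than in SUPM2 by 2.15 ± 0.28 (limma adjusted p = 0.00103).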

How the data were processed

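Gene expression was measured on 12 arrays of sorted SP and MP cells. The authors deposited log2 signals per probe set. The submitters' processing notes name RMA and no version, and it is unstated in the sources used whether the 12 arrays went through it in 1 run. RNA was amplified with a whole-transcript kit for small amounts, per the labels' protocols. All 12 columns were used. Arrays have no read depth, and precision depends on how many there are.

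Of 33297 probe sets, 19460 had 1 symbol, 1754 several and 12083 none, and 19429 of the first matched RefSeq. For 769 genes with several probe sets, the one with the highest mean stood for the gene. With limma 3.58.1 (R 4.3.3), SP was compared with MP in SUDHL-1 (6 arrays) and over 4 line differences. Lines were compared in 1 fit of the 12 median-centred arrays with line and population terms, so DEL, Karpas299 and SUPM2 borrow the spread of SUDHL-1. Two-sided p-values were adjusted (Benjamini-Hochberg) over 18417 genes and called under 0.05. An SP minus MP by SUDHL-1 interaction was also fitted. Each fit was run on simulated data with independent noise of the SUDHL-1 spread for every line. Those data held no shift between array sets and no difference in spread between lines, so neither was tested. For the fit over 4 lines the simulated SP shift was the same in every line.

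Array values were given for the 3 members of smallest p in each direction, for SP minus MP in SUDHL-1 and over the 4 lines. They were also given for the 10 called members of widest range between lines, and for ABCE1, ABCF1, ABCF2, ABCF3, ABCA1, ABCG1, ABCC4 and ABCC5. Every array was given, except that ABCA5 and ABCA9 had only a range, ABCC3 only SUDHL-1 arrays, and ABCB8 no SUPM2 arrays. Other members were named after their values were seen. From each list of genes that work with ABC proteins, the genes named were among the 2 of smallest p in the comparison described. They were not always the first: MGST2 in SUDHL-1 and SLC29A1 against SUPM2 ranked 2. The members, lists and tests were chosen with earlier results of these data known. Replicate numbers of SUDHL-1 did not pair SP with MP (correlation of same-numbered deviations -0.13 to -0.00), so no block was used.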

Additional observations from a re-analysis of the deposited data

Results flagged for a closer look

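The SP minus MP differences of the 4 lines were searched, for each of the 39 members, for a line far from the others. Chance flags about 1 in 20 such groups of 4 values. In 3 of the 39 members 1 line stood apart, which is not far from that rate. The share over all genes was not computed. ABCB11, dim on every array, differed by 0.2054 in SUPM2 (SP 2.98, MP 2.77), with a gap to the nearest line of 0.972 of the whole range. ABCB5, also dim, differed by 0.4592 in SUPM2 (SP 3.12, MP 2.66), with a gap of 0.8919 of the range. ABCD2 differed by 0.831 in Karpas299 (SP 6.75, MP 5.92), with a gap of 0.8463 of the range, while it was lower in SP in the other 3 lines. Each of these values comes from 1 SP and 1 MP array, whereas the SUDHL-1 difference is between means of 3 arrays.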

How the results depend on the processing

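In SUDHL-1 and over the 4 lines, 0 members were called between SP and MP under every alternative run, and with the replicate block 0 members and 0 genes were called; the block rests on a shared number only. Without the lowest 25% of genes the SUDHL-1 member median was -0.0671, against -0.0227, and it ran from -0.0543 to 0.0075 with 1 array left out. Small uncalled differences changed sign: ABCF1 in SUDHL-1 was 0.0092 after quantile normalization, and ABCF3 over the lines was 0.1865 without DEL (-0.1728 with it). With 1 SUDHL-1 array left out, the SUDHL-1 difference ran from -0.286 to 0.1482 for ABCE1, -0.0744 to 0.061 for ABCF1 and -0.0932 to 0.325 for ABCG1.

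For SUDHL-1 against the other lines, the 21 calls became 11 of 24 members tested without the lowest 25% of genes (56.8% of all genes). The calls lost there were of members no longer tested. There were 9 calls with SP arrays only (30.4% of all genes) and 13 with MP arrays only (32.9%). With a log2 difference of at least 1 there were 9, whose share over all genes is not given. Leaving out 1 SUDHL-1 array gave 20 to 21, and leaving out DEL, Karpas299 or SUPM2 gave 18, 20 and 22. The member median of 0.1139 was 0.0340 without the lowest 25% and -0.3452 as deposited. Among all genes, 9986 calls became 5601 with SP arrays only and 6065 with MP arrays only. ABCA1 was -0.0847 after quantile normalization, -0.4045 as deposited, -0.2063 without DEL, -0.2900 without Karpas299 and -0.0515 with MP arrays only. ABCF2 was -0.3559 after quantile normalization, -0.4191 as deposited and -0.5151 without SUPM2. As deposited, ABCF3 was -0.0798, ABCG1 -0.3516 and ABCC5 -0.0522. With 1 SUDHL-1 array left out ABCA1 ran from -0.0785 to 0.1992 and ABCF2 from -0.0289 to 0.0796.

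Between DEL and Karpas299, the 2 calls became 1 with a robust variance, with averaged probe sets or with a log2 difference of at least 1, 0 with only these lines' 6 arrays, and 0 to 2 with 1 SUDHL-1 array left out. Between DEL and SUPM2 the member median was 0.0870 without the lowest 25% of genes, against -0.0132. Between Karpas299 and SUPM2 the 7 calls became 3 with only the 6 arrays, 5 with a robust variance and 5 to 8 with 1 SUDHL-1 array left out. The alternatives with only 6 arrays have fewer samples; other causes were not tested. Over all genes the 6 arrays gave 439, 874 and 1259 calls, against 919, 1463 and 1891.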
